A study of Mus with 12 samples.

Results

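The keratins, claudins and desmosomal cadherins, with the plakins envoplakin (Evpl) and periplakin (Ppl), were taken from RNA sequencing of the mouse uterus by gene name. A row was a member when a name of it was Krt or Cldn followed only by digits, began with Dsg or Dsc and a digit, or was Evpl or Ppl, and when the row held an Ensembl transcript. The table of E0.5 and E4.5 held 83 such rows of 87235 (49 keratin, 23 claudin, 9 desmosomal cadherin and 2 plakin rows). The table of E15.5 and E18.5 held 64 of 40787 (35, 20, 7 and 2). Together they carried 84 gene names, of which 64 were in both tables, and keratins named with a letter after the number were outside this choice of names.

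The whole uterus had been collected from 12 pregnant ICR mice, an outbred stock, labelled as 8 weeks of age, with 3 mice on each of 4 days of pregnancy and 1 mouse per library. By the methods of the study all were mated at the same age, so age at collection rose with the day of pregnancy. No treatment beyond mating is named, and by their labels the groups differ in the day of collection. E0.5 was compared with E4.5, together called the implantation stage here, and E18.5 with E15.5, called the labor stage. The study compared these days to find transcripts that change as progesterone levels change. Expression is given as FPKM, the fragments of a transcript scaled to its length in kilobases and to the size of the library, so that levels of different genes within a table can be compared. The tables were made separately, and no level of one was compared with a level of the other.

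Keratins are the intermediate filament proteins of epithelial cells, and each filament is built from pairs of a type I and a type II keratin. Simple epithelia such as the lining and glands of the uterus use Krt8 with Krt18 and Krt19, while stratified epithelia use pairs such as Krt5 with Krt14 in the basal layer and Krt4 with Krt13 above it. Claudins are the membrane proteins that make the tight junction strands, some sealing the space between cells and others forming pores for ions or water. Desmogleins (Dsg) and desmocollins (Dsc) are the cadherins of desmosomes, the spot junctions to which keratin filaments are anchored, and envoplakin and periplakin link junctions to the filaments and to the cornified envelope of stratified cells.

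In the positions of the first table, which overlap the RefSeq genes of the same names in GRCm38 for all 84 names, 25 keratin rows lay on chromosome 11 within 1.04 Mb and 24 on chromosome 15 within 0.685 Mb. Krt18, a type I gene, lay on chromosome 15, 23.7 kb from Krt8. All 9 desmosomal cadherin rows were on chromosome 18, and Cldn3 and Cldn4 were 39.3 kb apart on chromosome 5. In the first table Krt81 and Krt83 shared 1 merged row and cannot be told apart there.

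Few members were abundant. Of the 83 implantation stage rows 26 averaged 1 FPKM or more, 39 reached the average of 0.1 FPKM needed to enter a test, and 28 had no read in any library, among them 23 of the 49 keratin rows. Of the 64 labor stage rows 24 reached 1 FPKM and 41 were tested. The most abundant keratins by mean over 6 libraries were Krt18, Krt8 and Krt19 in both tables. Krt8, Krt18, Krt19 and Krt7 together made 80.5% to 95.9% of the summed keratin FPKM in the implantation stage libraries and 93.2% to 97.2% in those of the labor stage. The most abundant claudins were Cldn7, Cldn3 and Cldn4 in the first table and Cldn10, Cldn3 and Cldn1 in the second. Dsc2 and Dsg2 were the only desmosomal cadherins with a mean of at least 1 FPKM in either table.

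**Figure D1:**
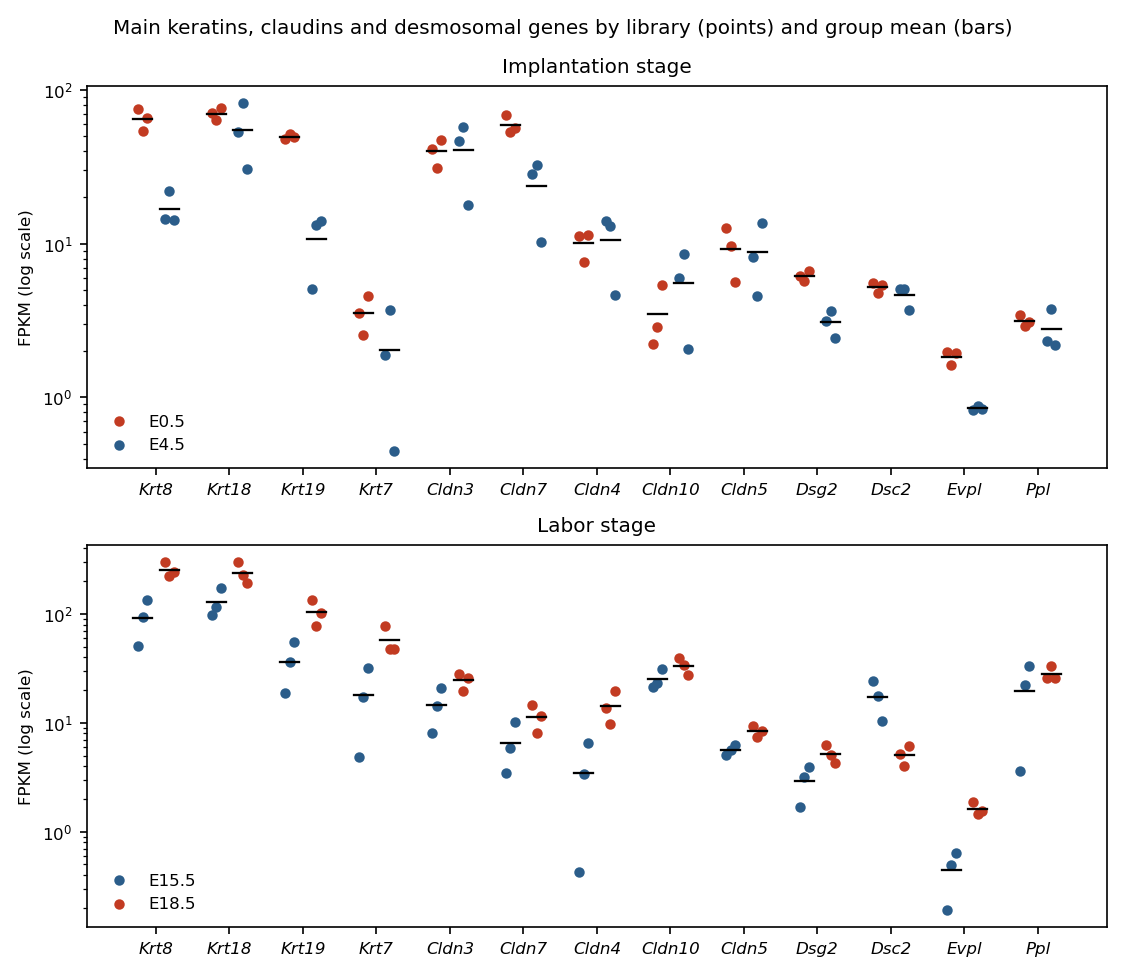
FPKM (log scale) of 13 members in each library, with E0.5 and E18.5 in red and E4.5 and E15.5 in blue, 3 libraries per day, and a black bar at the group mean. Krt8 ran from 14.3 to 22.1 FPKM at E4.5 and from 53.9 to 75.6 at E0.5, while Krt18 overlapped between those days, and Dsc2 stands above its E18.5 values in all 3 E15.5 libraries.

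Some libraries stood apart from the others of their day. The E4.5 replicate 3 library held ovary genes that the other 5 libraries of its table held at low levels, with a sum over the 6 ovary markers of 835 FPKM against 4.10 to 6.12 in the others, and its rank correlations with the other E4.5 libraries were 0.711 and 0.725, where the other pairs of libraries of 1 day had 0.885 to 0.910. Its sum over 10 epithelial markers was 41.9 FPKM, against 101.01 and 113 in the other E4.5 libraries. It also had the lowest smooth muscle sum of its table, 184 FPKM against 626 to 1051 in the others, and a gland marker sum of 6.82 FPKM against 458 and 640 at E4.5. Whether its tissue is that of its label was not tested, and comparisons with E4.5 include it unless stated. At the labor stage E15.5 replicate 1 had the lowest epithelial sum, 61.9 FPKM against 125 and 136. Its rank correlations with the other E15.5 libraries were 0.902 and 0.872, against 0.954 for the E15.5 pair without it. Members whose call within a stage changed without 1 library are named with that library. For the difference between the stages only counts are given. In these whole-tissue libraries fewer cells of a type and less RNA per cell cannot be told apart.

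At E0.5 the uterus held more of the simple epithelial keratins Krt8 and Krt19 than at E4.5, with group means 3.85 and 4.58 times as high. Cldn7, Dsg2 and Evpl were 2.50, 2.004 and 2.17 times as high, while Krt18, Cldn3, Cldn4 and Dsc2 had ratios of means between 0.945 and 1.27 and did not pass the test. The study called a gene changed at |log2(FC)| of 1 or more and p below 0.05, taken here as unadjusted, and by this criterion 8 of the 39 tested members were upregulated at E0.5 and none was downregulated in edgeR's quasi-likelihood test on the counts. The 8 were the keratins Krt8, Krt19, Krt20, Krt84 and Krt87, the claudin Cldn7, the desmoglein Dsg2 and Evpl. The share was 20.5%, beside 6.37% of all 59732 tested rows upregulated and 5.82% downregulated, or 5.37% and 6.60% of the rows with an Ensembl transcript. DESeq2 also gave 8 members higher and 0 lower, and limma on FPKM gave 5 and 0, with 0 members lower at an unadjusted p under 0.05 by any of the 3 tools. Krt8 and Krt19 passed a Benjamini-Hochberg adjusted p of 0.05 over all tested rows in edgeR, as did 1.20% of all rows, while in DESeq2 7 members did, all of the 8 but Krt84, with 4861 of all 59732 rows. In 4 of the 6 fits with 1 library left out (all but those without E4.5 replicate 2 or 3) no member passed the adjusted threshold in edgeR. The median log2 fold change was 0.20 over the tested members and 1.16 over the 20 tested keratins, beside -0.0072 over all rows. With 1 library left out the members' median ran from 0.18 to 0.51, the highest without E4.5 replicate 3 and the next, 0.37, without E4.5 replicate 2, and that of the keratins from 0.73 without E0.5 replicate 1 to 1.65 without E4.5 replicate 2.

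All 3 E0.5 libraries were above all 3 E4.5 libraries for 7 tested members, against 12.8% of all rows, and below them for 1, Krt222, against 12.5% of all rows. Without E4.5 replicate 3, 12 members passed the criterion, 7 higher and 5 lower at E0.5, beside 7.82% and 6.31% of all rows. The 5 lower were Krt12, Krt17, Krt23, Cldn10 and the merged Krt81/Krt83 row, with log2 fold changes from -3.31 to -1.06. None of the 5 passed with all libraries, and Krt17, Krt23 and Cldn10 passed in no other fit with 1 library left out. Krt12 and the Krt81/Krt83 row also passed, lower at E0.5, without E0.5 replicate 3.

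**Figure D2:**
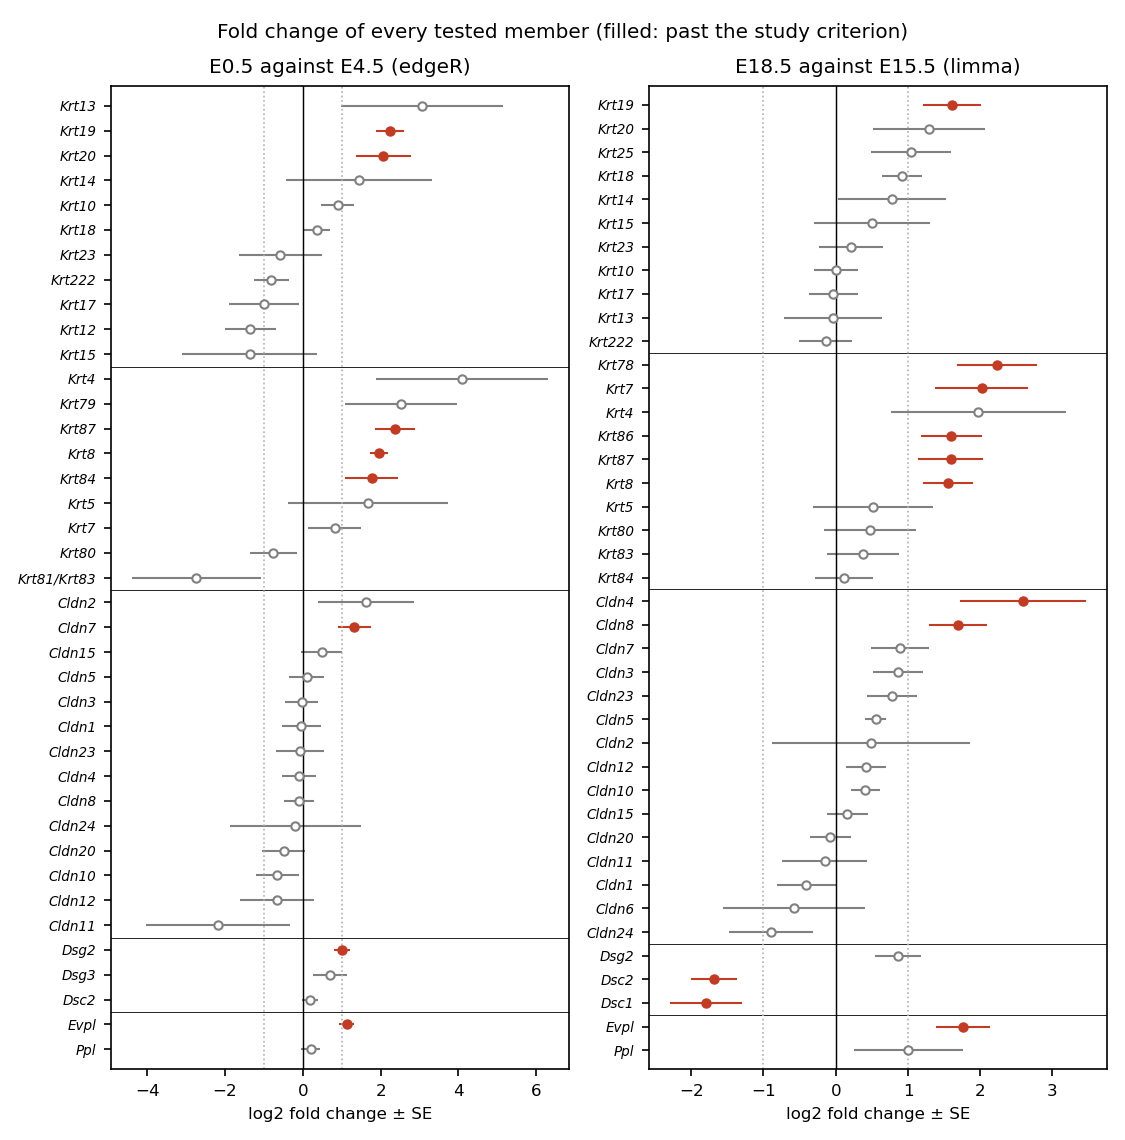
Log2 fold change ± SE of all 39 members tested at the implantation stage (edgeR, left) and all 41 tested at the labor stage (limma, right), grouped from the top as type I keratins, type II keratins, claudins, desmosomal cadherins and plakins, with filled red points past the study's criterion. On the left the 8 filled points are all above 0, and on the right 9 are above and 2, Dsc2 and Dsc1, below.

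Of the 4 keratins of simple epithelia 2 passed the criterion, both upregulated at E0.5, beside 6.37% of all rows. Krt8, the type II keratin of simple epithelia, had 75.6, 53.9 and 65.7 FPKM at E0.5 and 14.4, 22.1 and 14.3 at E4.5, with no overlap between the days. It was upregulated at E0.5 with a log2 fold change of 1.96 ± 0.23 (SE, edgeR, adjusted p = 0.0248), and passed the study's criterion in all 6 fits with 1 library left out. Krt19, a type I keratin with a very short tail, had 47.8, 51.4 and 49.2 FPKM at E0.5 and 5.06, 13.3 and 14.1 at E4.5. Its E0.5 values lay close together and above all E4.5 values, and its log2 fold change was 2.23 ± 0.36 (edgeR, adjusted p = 0.0469).

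Krt18, the usual type I partner of Krt8, had 70.5, 63.7 and 76.4 FPKM at E0.5 and 53.1, 81.8 and 30.6 at E4.5. The days overlapped, since E4.5 replicate 2 was above all E0.5 libraries, and the log2 fold change was 0.35 ± 0.34 (edgeR, adjusted p = 0.638), with 0.72 without that library and 0.052 without E4.5 replicate 3. Krt7, a type II keratin of simple and ductal epithelia, was lower in level, with 3.57, 2.55 and 4.54 FPKM at E0.5 and 1.897, 3.72 and 0.448 at E4.5. Its lowest value was in E4.5 replicate 3 and its days overlapped, with a log2 fold change of 0.82 ± 0.67 (edgeR, adjusted p = 0.573) that was 0.34 without that library and 1.55 without E4.5 replicate 2.

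Ratios within a library were chosen with these values known and are given as descriptions, without a test. Krt18 to Krt8 was 0.932, 1.18 and 1.16 at E0.5 and 3.69, 3.71 and 2.14 at E4.5, so that near-equal levels at E0.5 stood against an excess of Krt18 in every E4.5 library. The groups did not overlap in this ratio. Summed over all members, type I keratins had 135, 121 and 146 FPKM at E0.5 and 69.2, 115 and 47.9 at E4.5. The type II sum was 87.8, 57.6 and 81.2 at E0.5 and 21.3, 35.2 and 15.8 at E4.5, and the type I to type II ratio was higher in every E4.5 library (3.03 to 3.27) than in any E0.5 library (1.54 to 2.10).

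**Figure D3:**
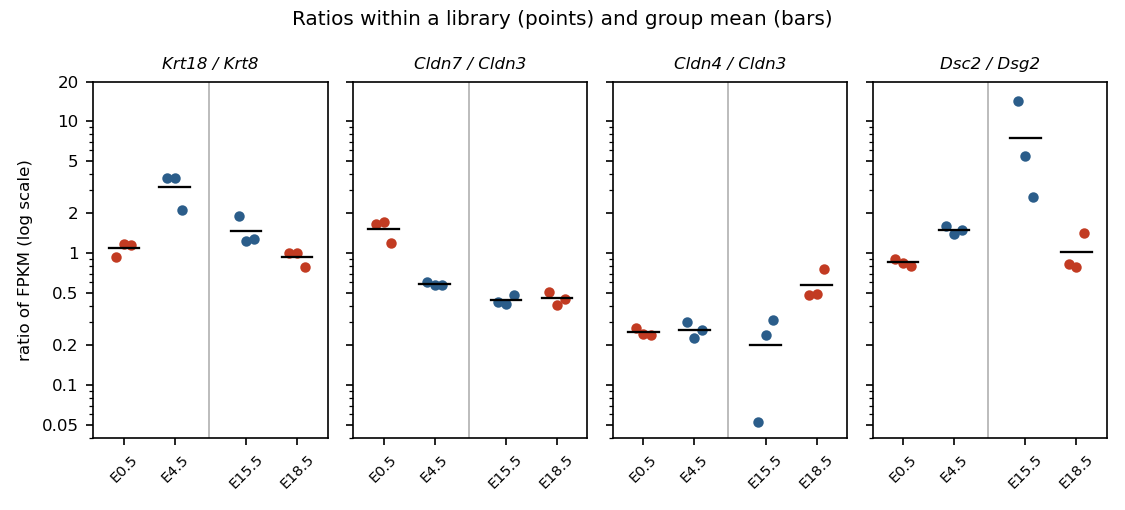
Ratio of FPKM (log scale) between 2 members within each library, for Krt18 to Krt8, Cldn7 to Cldn3, Cldn4 to Cldn3 and Dsc2 to Dsg2, with E0.5 and E18.5 in red, E4.5 and E15.5 in blue and a black bar at the mean of 3 libraries. The Krt18 to Krt8 ratio is 2.14 or more at E4.5 and at most 1.18 at E0.5, and the Dsc2 to Dsg2 ratio at E15.5 is above every E18.5 library.

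Of the keratins of stratified epithelia, Krt13, Krt4, Krt5 and Krt14 had counts in some libraries only. Krt13 had 7.31, 0 and 6.56 FPKM at E0.5 and 0.392, 1.27 and 0 at E4.5, and its partner Krt4 had 1.33, 0 and 0.197 at E0.5 and 0.0827, 0 and 0 at E4.5. The basal keratin Krt5 had 4.64, 0 and 6.67 FPKM at E0.5 and 0.862, 2.69 and 0 at E4.5, and Krt14, with which it pairs, had 1.66, 0 and 0.612 at E0.5 and 0.151, 0.688 and 0 at E4.5. All 4 were without a count in E0.5 replicate 2 and E4.5 replicate 3, where 3 counts would have given 0.017 to 0.0239 FPKM. Krt10, of the layers above the basal one in the epidermis, had reads in all 6 libraries, with 2.14, 0.699 and 1.85 FPKM at E0.5 and 0.704, 0.784 and 1.06 at E4.5.

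None of these 4 passed the criterion with all libraries, with log2 fold changes of 3.06 ± 2.08 for Krt13, 1.68 ± 2.06 for Krt5, 1.44 ± 1.87 for Krt14 and 4.10 ± 2.21 for Krt4. Their adjusted p in edgeR was 0.490, 0.716, 0.736 and 0.384. Krt4 passed without E0.5 replicate 2, at 4.69, and without E4.5 replicate 1, where no count was left at E4.5. Its E4.5 mean of 0.0276 FPKM was under the 0.1 needed for a test, which it entered only through E0.5. Sprr1a, a cornified envelope precursor, was also highest in E0.5 replicates 1 and 3, with 12.5, 1.68 and 16.7 FPKM at E0.5 and 0, 0.496 and 0 at E4.5. Of the 8 markers of stratified squamous epithelium 5 were below 0.1 FPKM on average (Flg, Ivl, Krtdap, Lor and Tgm3), and their sum was 0.317 to 4.42 FPKM at E0.5 and 0.503 to 4.36 at E4.5. The highest sums were in E0.5 replicate 1 and E4.5 replicate 3, mainly from Dmkn, and their part in the keratin values was not tested.

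**Figure D4:**
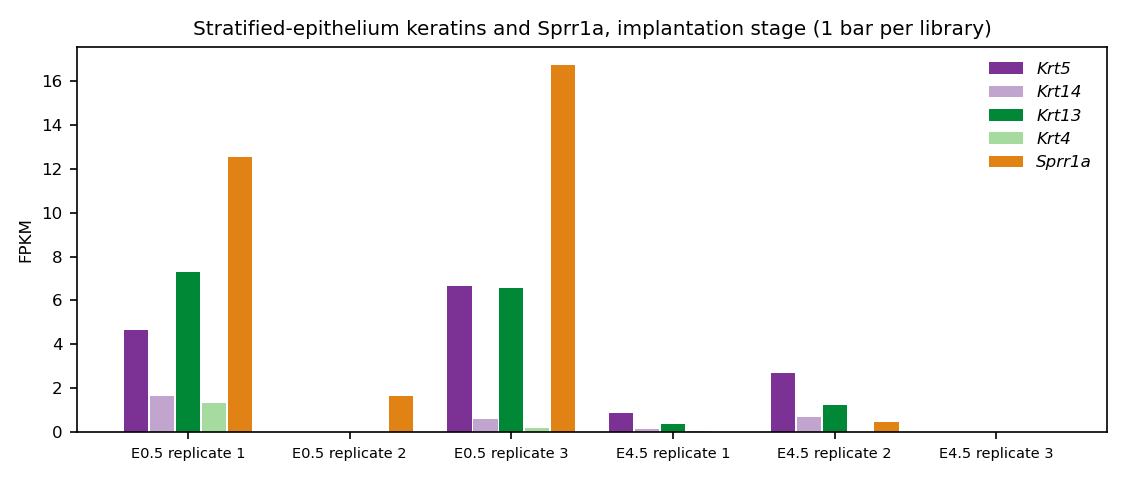
FPKM of the stratified-epithelium keratins Krt5, Krt14, Krt13 and Krt4 and of the envelope precursor Sprr1a in each of the 6 libraries of the implantation stage, 1 bar per library. E0.5 replicates 1 and 3 hold Krt5 and Krt13 at 4.64 to 7.31 FPKM, while E0.5 replicate 2 and E4.5 replicate 3 hold none of the 4 keratins.

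Among the other keratins, Krt20, known from intestinal and bladder lining, had 1.81, 0.666 and 4.43 FPKM at E0.5 and 0.323, 0.826 and 0.523 at E4.5. It was upregulated at E0.5 by the criterion with a log2 fold change of 2.07 ± 0.71 (edgeR, adjusted p = 0.213), although E4.5 replicate 2 was above E0.5 replicate 2. The call was lost without E0.5 replicate 3 (log2 fold change 1.16) and without E4.5 replicate 1 (1.82). The hair keratin Krt87 had 1.14, 0.614 and 1.53 FPKM at E0.5 and 0.303, 0.171 and 0.153 at E4.5, without overlap, and a log2 fold change of 2.36 ± 0.51 (adjusted p = 0.0817). Krt84, another type II hair keratin, was under 0.5 FPKM in every library, with 0.131, 0.171 and 0.498 at E0.5 and 0.0670, 0.0774 and 0.0860 at E4.5, and its log2 fold change of 1.77 ± 0.68 (adjusted p = 0.258) passed the criterion only in the fits without E0.5 replicate 1 or 2 among the 6 that leave out 1 library, where those that lost it gave 0.95 without E0.5 replicate 3 and 1.74, 1.75 and 1.84 without E4.5 replicates 1, 2 and 3. Its E4.5 mean was 0.0768 FPKM, so it reached the average of 0.1 needed for a test only through E0.5, where it was high. The type I keratin Krt23 had 3.33, 3.68 and 4.33 FPKM at E0.5 and 5.74, 11.03 and 0.179 at E4.5, and the merged Krt81/Krt83 row of hair keratins had 0.0663, 0.0936 and 1.08 at E0.5 and 2.76, 5.595 and 0.0372 at E4.5. In both the highest libraries were E4.5 replicates 1 and 2 and the lowest E4.5 replicate 3. The other 7 tested keratins (Krt10, Krt12, Krt15, Krt17, Krt79, Krt80 and Krt222) lay between 0 and 2.78 FPKM and did not pass with all libraries. Krt10 passed without E0.5 replicate 2, at 1.24 against 0.89 with it, and Krt79 without E4.5 replicate 3, at 5.35 against 2.53, where 5 and 0 counts were left at E4.5. Krt79, with a mean of 0.0477 FPKM at E4.5, likewise entered the test only through E0.5.

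The claudins gave 1 of 14 tested members past the criterion, or 7.14%, near the 6.37% of all rows upregulated at E0.5. Cldn7, a claudin found along the sides of simple epithelial cells, had 68.6, 53.03 and 56.6 FPKM at E0.5 and 28.4, 32.7 and 10.3 at E4.5, all E0.5 libraries above all E4.5 libraries. Its log2 fold change was 1.32 ± 0.43 (edgeR, adjusted p = 0.191), and it was 0.94 without E4.5 replicate 3, under the fold change minimum, and 1.23 without E0.5 replicate 1, where its unadjusted p was above 0.05. The sealing claudin Cldn3 had 41.2, 30.9 and 47.6 FPKM at E0.5 and 46.9, 57.2 and 17.9 at E4.5, overlapping, with a log2 fold change of -0.029 ± 0.43 whose sign changed under other settings. Its neighbour Cldn4, also a sealing claudin, had 11.2, 7.59 and 11.3 FPKM at E0.5 and 14.1, 13.1 and 4.66 at E4.5, with a log2 fold change of -0.090 ± 0.44 and the same instability of sign.

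The Cldn7 to Cldn3 ratio was 1.66, 1.72 and 1.19 at E0.5 and 0.607, 0.571 and 0.574 at E4.5, so the more abundant of the pair differed between the days in every library. The Cldn4 to Cldn3 ratio overlapped, at 0.271, 0.246 and 0.238 at E0.5 and 0.302, 0.228 and 0.261 at E4.5. Cldn5, the claudin of endothelial cells, had 12.7, 9.63 and 5.64 FPKM at E0.5 and 8.19, 4.55 and 13.6 at E4.5, with a log2 fold change of 0.097 ± 0.45. Cldn10, whose isoforms form ion pores, had 2.24, 2.86 and 5.37 FPKM at E0.5 and 5.95, 8.56 and 2.07 at E4.5 and a log2 fold change of -0.66 ± 0.56 (edgeR, adjusted p = 0.583). A row on the opposite strand overlaps Cldn10 and had a mean of 2.94 FPKM, and since it is not stated whether counting used strand, reads of the pair cannot be told apart. The same holds for Evpl, Krt7, Krt10, Cldn20 and Dsg2, whose opposite-strand rows had means of 0.817, 0.911, 0.736, 1.31 and 0.237 FPKM. Krt80, with a mean of 0.616 FPKM, has opposite-strand rows at 0.342 and 0.245, and rows with no strand overlap Evpl (0.735 FPKM) and Krt23 (2.77 FPKM). The pore claudin Cldn2 had 4.86, 1.13 and 1.38 FPKM at E0.5 and 0.124, 0.104 and 2.24 at E4.5, so that E4.5 replicate 3 alone overlapped E0.5. Its log2 fold change was 1.62 ± 1.23 with that library (adjusted p = 0.538) and 4.37 without it (adjusted p = 0.0224), and it was named after its values were seen. Cldn11, with 0.0473, 0 and 3.196 FPKM at E4.5 and at most 0.360 at E0.5, was likewise highest in that library. Cldn12 had 0.244, 6.20 and 3.52 FPKM at E0.5 and 2.78, 6.32 and 7.21 at E4.5, the low value being E0.5 replicate 1. The other 6 tested claudins (Cldn1, Cldn8, Cldn15, Cldn20, Cldn23 and Cldn24) lay between 0 and 7.97 FPKM, overlapped between the days and did not pass with all libraries, and of them Cldn15 passed without E4.5 replicate 1 (1.14 against 0.48).

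Of the desmosomal cadherins, Dsg2, the widely expressed desmoglein of simple epithelia, had 6.15, 5.70 and 6.67 FPKM at E0.5 and 3.16, 3.63 and 2.45 at E4.5, without overlap. It was upregulated at E0.5 with a log2 fold change of 1.01 ± 0.20 (edgeR, adjusted p = 0.0711), just past the minimum of 1, and was under it at 0.94 without E0.5 replicate 3 and 0.85 without E4.5 replicate 3. Dsc2, the desmocollin of simple epithelia, had 5.54, 4.81 and 5.37 FPKM at E0.5 and 5.05, 5.11 and 3.69 at E4.5, overlapping, with a fold change of 0.19 ± 0.20 on the log2 scale (adjusted p = 0.673). The Dsc2 to Dsg2 ratio was therefore higher in every E4.5 library (1.60, 1.40 and 1.51) than at E0.5 (0.9004, 0.844 and 0.806).

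Dsg3, a desmoglein of basal stratified cells, was low, with 0.379, 0.186 and 0.245 FPKM at E0.5, 0.0909, 0.217 and 0.201 at E4.5 and a log2 fold change of 0.70 ± 0.45 (edgeR, adjusted p = 0.462). The other 6 desmosomal cadherin rows had at most 0.135 FPKM in any library and were not tested. Evpl had 1.99, 1.62 and 1.93 FPKM at E0.5 and 0.827, 0.884 and 0.841 at E4.5, with little spread within a day and no overlap, and was upregulated with a fold change of 1.13 ± 0.19 on the log2 scale (adjusted p = 0.0506). Ppl, its binding partner, had 3.42, 2.91 and 3.11 FPKM at E0.5 and 2.34, 3.77 and 2.19 at E4.5, with a fold change of 0.20 ± 0.24 on the log2 scale (adjusted p = 0.713).

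The genes that work with these members were read from fixed lists, whose counts stand beside 6.37% of all rows upregulated and 5.82% downregulated. Of 7 desmosome plaque genes, 2 were upregulated at E0.5 and 5 did not pass, with a median log2 fold change of 0.82. Dsp, desmoplakin, which ties keratin filaments to the desmosome, had 14.5, 11.9 and 13.97 FPKM at E0.5 and 1.64, 2.64 and 3.82 at E4.5 and a log2 fold change of 2.34 ± 0.29 (edgeR, adjusted p = 0.0263). The other was Pkp3 (1.13 ± 0.43), which passed in 2 of the 6 fits with 1 library left out, and Jup, plakoglobin, had 0.82 ± 0.20, under the minimum of 1. Of 17 tight junction partners 2 were upregulated, none downregulated and 15 did not pass (5 of the 17 at an unadjusted p under 0.05 in edgeR, 2 of them lower), with a median of -0.050. Tjp3, a scaffold protein that binds claudins, had 8.79, 9.65 and 12.8 FPKM at E0.5 and 0.792, 1.42 and 0.662 at E4.5 (log2 fold change 3.45 ± 0.35, adjusted p = 0.0176), and Marveld3 had 1.26 ± 0.39.

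Of 11 epithelial transcription and splicing regulators 2 were upregulated and 9 did not pass, with a median of 0.76. Elf3, an epithelial ETS factor, had 66.0, 66.7 and 47.5 FPKM at E0.5 and 3.08, 3.79 and 3.27 at E4.5 (log2 fold change 4.16 ± 0.21, edgeR, adjusted p = 0.00505), and Grhl2, an epithelial grainyhead factor, had 1.02 ± 0.24. Of the 10 tested genes of the cornified envelope list 4 were upregulated in edgeR, Sprr1a, Sprr3, Cnfn and Sfn, and 1, Trp63, was downregulated, with a median of 1.03. DESeq2 also gave 4 higher and 1 lower, while limma on FPKM gave 2 and 0.

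Marker lists of epithelial and other cells were read in the same libraries. Of the 10 epithelial markers 3 were upregulated at E0.5, Cdh1 and Rab25 among them, and 7 did not pass, with a median of 0.81 and sums of 131 to 174 FPKM at E0.5 and 41.9 to 113 at E4.5, none of them at 0 in all libraries. Divided by this sum, Krt8 was 0.564, 0.412 and 0.378 at E0.5 and 0.142, 0.195 and 0.341 at E4.5, still without overlap, and Krt18 was 0.526, 0.487 and 0.439 at E0.5 and 0.526, 0.722 and 0.731 at E4.5, higher at E4.5 although replicate 1 of each day had the same value at this precision. Cldn7 did not overlap on this scale and was higher at E0.5, while Cldn3, Cldn4 and Dsc2 did not overlap and were higher at E4.5. Dsc2 was 0.0413, 0.0368 and 0.0309 at E0.5 and 0.049999, 0.0451 and 0.0880 at E4.5. Krt19 overlapped on this scale, at 0.357, 0.393 and 0.283 at E0.5 and 0.0501, 0.117 and 0.337 at E4.5, as did Dsg2, at 0.0458, 0.0435 and 0.0383 at E0.5 and 0.0313, 0.0321 and 0.0584 at E4.5. Evpl overlapped too, at 0.0148, 0.0124 and 0.0111 at E0.5 and 0.00819, 0.00780 and 0.0201 at E4.5, and in all 3 it was E4.5 replicate 3 that overlapped.

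The sums of other marker lists, E0.5 first, were 1.20 to 5.08 against 6.82 to 640 FPKM for gland epithelium and 28.4 to 32.8 against 42.6 to 77.9 for endothelium, with 4 of 8 endothelial markers downregulated. Of the 5 gland markers Prss29, Spink1 and Ttr were downregulated at E0.5. The other 2 had positive log2 fold changes and did not pass. Sums were 12.98 to 20.6 against 15.98 to 18.4 for mesothelium, 11.6 to 24.6 against 8.12 to 91.7 for oviduct, 626 to 913 against 184 to 1051 for smooth muscle and 269 to 393 against 149 to 323 for stroma. The 91.7 for oviduct, the 184 for smooth muscle and the 149 for stroma were all those of E4.5 replicate 3. Trophoblast and yolk sac markers were near 0, with sums of at most 1.04 FPKM for trophoblast and at most 0.249 for yolk sac outside E4.5 replicate 3, which held 11.5, nearly all of it Apoa4. The part of these cell types in the members' differences was not tested.

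At E18.5 the uterus held more Krt8, Krt19 and Krt7 than at E15.5, with group means 2.75, 2.87 and 3.24 times as high, and more Cldn4, Cldn8 and Evpl, at 4.14, 3.37 and 3.67 times. It held less Dsc2, whose E15.5 mean was 3.42 times its E18.5 mean. Between E18.5 and E15.5, 9 of the 41 tested members were upregulated at E18.5 and 2 were downregulated by the same criterion, in limma on log2(FPKM + 0.1), a scale that understates changes of low genes. The upregulated members were the keratins Krt7, Krt8, Krt19, Krt78, Krt86 and Krt87, the claudins Cldn4 and Cldn8, and Evpl, and the downregulated members were the desmocollins Dsc1 and Dsc2. The upregulated share was 21.95%, beside 3.11% of all 30928 tested rows (2.52% of rows with an Ensembl transcript), and 2.93% of all rows were downregulated (2.67%). None of the 41 passed an adjusted p of 0.05 in limma, with or without a variance trend, as 0.0259% of all rows did with it, while 15 had an unadjusted p under 0.05 with the trend and 14 without. Dsc1, Krt78 and Krt86 averaged under 0.1 FPKM on their lower day and entered the test only through the day where they were high.

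The median log2 fold change was 0.52 over the tested members, beside 0.020 over all rows, and it was 0.29 without E15.5 replicate 1, 0.85 without E15.5 replicate 2 and 0.78 without E15.5 replicate 3. All 3 E18.5 libraries were above all 3 E15.5 libraries for 13 tested members, against 10.9% of all rows, and below them for 2, against 8.96%. Without E15.5 replicate 3, 15 members were higher and 2 lower, beside 4.08% and 3.66% of all rows, and the added members were Krt4, Krt18, Krt20, Cldn3, Cldn7 and Dsg2, with log2 fold changes of up to 3.44, that of Krt4. Krt18 also passed without E18.5 replicate 3 (1.06), and Cldn3 and Cldn7 without E18.5 replicate 2 (1.01 and 1.12).

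All 4 simple epithelial keratins were more abundant in every E18.5 library than in any E15.5 library. Krt8 had 51.02, 94.1 and 133 FPKM at E15.5 and 297, 225 and 244 at E18.5, and was upregulated with a log2 fold change of 1.56 ± 0.35 (SE, limma, adjusted p = 0.173). Krt19 had 18.8, 36.1 and 54.8 FPKM at E15.5 and 135, 77.5 and 102 at E18.5, with a fold change of 1.61 ± 0.40 on the log2 scale (adjusted p = 0.199). For both, E15.5 replicate 1 was the lowest library, and both passed the criterion in all 6 fits with 1 library left out.

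Krt7 had 4.83, 17.3 and 31.6 FPKM at E15.5 and 77.7, 48.1 and 48.1 at E18.5, a log2 fold change of 2.02 ± 0.64 (limma, adjusted p = 0.286), and its lowest library was E15.5 replicate 1. Without that library the value was 1.27, still past the criterion, and without E18.5 replicate 1 it was 1.79 and no longer passed. Krt18 had 97.0, 116 and 172 FPKM at E15.5 and 298, 227 and 191 at E18.5, and its log2 fold change of 0.91 ± 0.28 (adjusted p = 0.266) was under the minimum of 1. The Krt18 to Krt8 ratio was 1.9003, 1.23 and 1.29 at E15.5 and 1.002, 1.01 and 0.782 at E18.5, without overlap. The Krt19 to Krt8 ratio overlapped, at 0.368, 0.384 and 0.412 at E15.5 and 0.454, 0.344 and 0.418 at E18.5.

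Krt5, Krt14 and Krt13 were low in all labor stage libraries. Krt5 had 0, 0.504 and 0 FPKM at E15.5 and 0.140, 0.0458 and 0.406 at E18.5, Krt14 had 0.172, 0.577 and 0.0182 at E15.5 and 0.709, 0.129 and 0.498 at E18.5, and Krt13 had 0.0555, 0.110 and 0.0619 at E15.5 and 0, 0 and 0.387 at E18.5. All 3 overlapped between the days, with log2 fold changes of 0.52 ± 0.83, 0.78 ± 0.74 and -0.040 ± 0.68 (limma, adjusted p = 0.829, 0.6999 and 0.988). Krt4 had 0, 0.246 and 3.81 FPKM at E15.5 and 2.42, 1.53 and 1.897 at E18.5, so that E15.5 replicate 3 held the most and E15.5 replicate 1 is listed at 0, and its log2 fold change of 1.97 ± 1.21 did not pass.

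Some low keratins passed the criterion. Krt87 had 0.354, 0.409 and 0.653 FPKM at E15.5 and 3.08, 1.39 and 0.901 at E18.5, with a log2 fold change of 1.59 ± 0.45 (limma, adjusted p = 0.244). Krt78 is listed at 0 in 2 of the E15.5 libraries, with 0, 0 and 0.241 FPKM at E15.5, 0.817, 0.504 and 0.539 at E18.5 and a log2 fold change of 2.23 ± 0.55 (adjusted p = 0.197), and the hair keratin Krt86 had 0.0601, 0.141 and 0.0536 FPKM at E15.5 and 0.716, 0.485 and 0.247 at E18.5 and 1.60 ± 0.42 (adjusted p = 0.215). With a pseudocount of 1 in place of 0.1, which weighs low levels less, Krt78, Krt86, Krt87, Evpl and Dsc1 no longer reached the minimum of 1. Krt80, at 1.93, 10.6 and 11.7 FPKM at E15.5 and 8.10, 9.40 and 8.72 at E18.5, was the fifth keratin by mean level and did not pass (log2 fold change 0.47 ± 0.64, or -0.35 without E15.5 replicate 1). The other 9 tested keratins (Krt10, Krt15, Krt17, Krt20, Krt23, Krt25, Krt83, Krt84 and Krt222) lay between 0 and 5.36 FPKM, overlapped between the days and did not pass.

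Of the 15 tested claudins 2 were upregulated and 13 did not pass, a share of 13.3% beside 3.11% of all rows. Cldn4 had 0.426, 3.41 and 6.59 FPKM at E15.5 and 13.8, 9.77 and 19.7 at E18.5, all E18.5 libraries above, with a log2 fold change of 2.59 ± 0.88 (limma, adjusted p = 0.312), and was 1.52 without E15.5 replicate 1, its lowest library. It no longer passed without E18.5 replicate 1 (2.59) or 3 (2.34). Cldn8, a sealing claudin known from the collecting duct of the kidney, had 1.33, 1.68 and 3.01 FPKM at E15.5 and 8.35, 8.18 and 3.75 at E18.5 and a log2 fold change of 1.70 ± 0.40 (adjusted p = 0.185), and passed in all 6 fits with 1 library left out. Cldn3 had 8.04, 14.2 and 21.0 FPKM at E15.5 and 28.4, 19.8 and 26.02 at E18.5, overlapping, with a fold change of 0.86 ± 0.34 on the log2 scale (adjusted p = 0.386). Cldn7 had 3.45, 5.87 and 10.2 FPKM at E15.5 and 14.5, 8.02 and 11.6 at E18.5, also overlapping, with 0.89 ± 0.40 (adjusted p = 0.434).

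The Cldn4 to Cldn3 ratio was 0.0530, 0.240 and 0.313 at E15.5 and 0.486, 0.494 and 0.756 at E18.5, without overlap, while the Cldn7 to Cldn3 ratio was 0.429, 0.413 and 0.485 at E15.5 and 0.510, 0.406 and 0.447 at E18.5, overlapping. Cldn10, the most abundant claudin of this table, had 21.2, 23.4 and 31.1 FPKM at E15.5 and 39.1, 33.7 and 27.6 at E18.5 and a log2 fold change of 0.41 ± 0.20 (limma, adjusted p = 0.455). Cldn5 was higher in every E18.5 library, with 5.02, 5.67 and 6.31 FPKM at E15.5 and 9.25, 7.39 and 8.41 at E18.5, but by 0.55 ± 0.15 only. Cldn1, a sealing claudin best known from the epidermis, had 20.9, 6.98 and 7.56 FPKM at E15.5 and 7.01, 8.53 and 7.91 at E18.5, the excess at E15.5 being replicate 1, and its log2 fold change was -0.40 ± 0.40 with it and 0.099 without. Cldn2 had 0.656, 1.59 and 4.69 FPKM at E15.5 and 5.92, 9.91 and 0.178 at E18.5, the highest and the lowest library both being of E18.5, and passed without E18.5 replicate 3, at 2.08 against 0.48 with it. Its direction turned in 3 other fits, down to -0.50 without E18.5 replicate 2. The other 7 tested claudins (Cldn6, Cldn11, Cldn12, Cldn15, Cldn20, Cldn23 and Cldn24) lay between 0 and 12.8 FPKM and did not pass with all libraries, while Cldn6 and Cldn24 were lower at E18.5 without E15.5 replicate 1 (-1.74 and -1.39). In that fit 9 members were higher and 4 lower, beside 2.44% and 2.57% of all rows. Cldn6 was 0.40 without E15.5 replicate 3, and Cldn24 entered the test only through E15.5, with an E18.5 mean of 0.0837 FPKM.

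Among the desmosomal cadherins Dsc2 was downregulated at E18.5. It had 24.3, 17.5 and 10.4 FPKM at E15.5 and 5.17, 3.98 and 6.11 at E18.5, every E15.5 library above every E18.5 library, and the highest was E15.5 replicate 1, the library with the lowest epithelial sum. The log2 fold change was -1.69 ± 0.32 (limma, adjusted p = 0.141), or -1.41 without that library and past the criterion in all 6 fits with 1 library left out. Dsc1, the desmocollin of superficial stratified layers, was low, with 0.578, 0.267 and 0.108 FPKM at E15.5 and 0, 0 and 0.0245 at E18.5 and a log2 fold change of -1.79 ± 0.50 (adjusted p = 0.242). It passed the criterion at a pseudocount of 0.1 but not of 1, and its E18.5 mean of 0.00815 FPKM was under the 0.1 needed for a test.

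Dsg2 had 1.70, 3.204 and 3.92 FPKM at E15.5 and 6.26, 5.07 and 4.29 at E18.5, with all E18.5 libraries above and a log2 fold change of 0.86 ± 0.31 (limma, adjusted p = 0.345), under the minimum. The Dsc2 to Dsg2 ratio was thus 14.3, 5.45 and 2.65 at E15.5 and 0.826, 0.786 and 1.42 at E18.5, without overlap. Evpl had 0.191, 0.493 and 0.640 FPKM at E15.5 and 1.87, 1.45 and 1.53 at E18.5, a log2 fold change of 1.76 ± 0.37 (adjusted p = 0.166). Ppl was much more abundant, with 3.61, 22.3 and 33.1 FPKM at E15.5 and 26.03, 33.2 and 25.6 at E18.5, and its log2 fold change of 1.01 ± 0.75 (adjusted p = 0.630) was 0.047 without E15.5 replicate 1, its lowest library.

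Among the partner genes, beside 3.11% of all rows upregulated and 2.93% downregulated, 2 of 6 tested desmosome plaque genes (Dsp and Jup) were upregulated at E18.5 and 4 did not pass, with a median of 0.56. Dsp passed in 3 and Jup in 2 of the 6 fits with 1 library left out. Dsp had 2.17, 6.78 and 9.61 FPKM at E15.5 and 19.2, 14.6 and 12.2 at E18.5, a log2 fold change of 1.51 ± 0.51 (limma, adjusted p = 0.314), opposite in sign to Dsc2 in the same libraries. Of the 17 tight junction partners 0 passed the criterion in limma with or without a variance trend, 6 had an unadjusted p under 0.05 with it and 2 without, all of them higher, and the median was 0.60. The lowest p was that of F11r, a junctional adhesion molecule, at 0.61 ± 0.16.

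Of 10 tested epithelial regulators Elf3 (2.31 ± 0.64, with 2.18, 6.87 and 11.3 FPKM at E15.5 and 52.5, 19.3 and 21.5 at E18.5) and Ovol2 (1.28 ± 0.34) were upregulated and 8 did not pass, with a median of 0.50. Of 8 tested cornified envelope genes 0 were upregulated in limma, 2 being higher at an unadjusted p under 0.05, and 2 were downregulated, Krtdap and Dmkn, with a median of 0.35. Krtdap, a secreted protein of differentiating keratinocytes, had 12.6, 5.17 and 4.86 FPKM at E15.5 and 0.646, 1.19 and 1.86 at E18.5 (log2 fold change -2.49 ± 0.47, adjusted p = 0.142), and Dmkn had 68.9, 26.2 and 20.5 FPKM at E15.5 and 13.5, 8.92 and 14.97 at E18.5. As with Dsc2, E15.5 replicate 1 was the highest library for both.

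Of the 10 epithelial markers 2 were upregulated at E18.5, Cdh1 among them, and 8 did not pass, with a median of 0.70 and sums of 61.9 to 136 FPKM at E15.5 and 155.1 to 208 at E18.5. Divided by that sum, Krt8 was 0.824, 0.752 and 0.976 at E15.5 and 1.43, 1.35 and 1.57 at E18.5, without overlap, as were Krt19, Krt7, Cldn4 and Evpl higher at E18.5. Dsg2 overlapped on this scale, at 0.0274, 0.0256 and 0.0288 at E15.5 and 0.0301, 0.0302 and 0.0276 at E18.5, as did Krt18, Cldn3 and Cldn7. Dsc2 was 0.392, 0.140 and 0.0762 at E15.5 and 0.0249, 0.0238 and 0.0394 at E18.5, lower in every E18.5 library.

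Markers of the conceptus were present in these libraries. Yolk sac markers summed to 2.24, 102 and 742 FPKM at E15.5 and 186, 536 and 91.2 at E18.5, overlapping, with 1 of 6 past the criterion. Trophoblast markers summed to 4.36 to 34.3 FPKM at E15.5 and 44.7 to 75.5 at E18.5, with 2 of 7 tested upregulated. The sums of the other lists, E15.5 first, were 18.8 to 91.8 against 17.97 to 29.3 FPKM for gland epithelium, 157 to 186 against 90.2 to 120 for endothelium, 19.3 to 23.7 against 23.7 to 48.7 for mesothelium and 25.5 to 81.8 against 10.2 to 16.9 for stratified squamous epithelium. They were 23.2 to 27.9 against 15.9 to 22.8 for ovary, 8.20 to 14.98 against 13.4 to 16.2 for oviduct, 2165 to 3081 against 2702 to 3447 for smooth muscle and 852 to 1345 against 976 to 1248 for stroma. Of the stratified squamous list only Krtdap and Dmkn, already given above, were tested, and they held nearly all of its sum. Flg, Ivl, Lor, Tgm3 and Trp63 were below 0.1 FPKM on average. Of the 8 endothelial markers 1 was upregulated, 1 downregulated and 6 did not pass, with a median log2 fold change of -0.11. The part of conceptus tissue in the members' values was not tested.

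The fold changes of both stages were then set against each other. For 36 member pairs measured in both tables, the difference between the E0.5 to E4.5 and the E18.5 to E15.5 log2 fold changes was tested with limma over all 12 libraries. By a difference of 1 or more in either direction with an unadjusted p under 0.05, 3 pairs passed (Dsc2, Cldn8 and Cldn4), beside 11.9% of all 22056 row pairs, and with an adjusted p of 0.05 only Dsc2 did among the members, beside 2.57% of all pairs, so the members' counts were near or below the share of all pairs. Dsc2 had 0.19 between E0.5 and E4.5 and -1.69 between E18.5 and E15.5, a difference of 1.88 ± 0.39 (SE, limma, adjusted p = 0.0310). It passed the unadjusted criterion in all 12 fits with 1 library left out and the adjusted one in 5 of them.

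Cldn8 had -0.098 and 1.70, a difference of -1.79 ± 0.58 (limma, adjusted p = 0.126), and Cldn4 had 0.052 and 2.59, a difference of -2.54 ± 1.08 (adjusted p = 0.239). Of the 12 fits with 1 library left out Cldn8 passed in 12 and Cldn4 in 5, and over the 12 the Cldn4 difference ran from -3.31 to -1.47. Krt8, Krt19, Krt87 and Evpl passed the criterion in both stages, higher at E0.5 and higher at E18.5. The share of all row pairs that passed in both stages is not given here, so whether members did so more often was not tested. For these members the differences between the stages were 0.40 ± 0.45, 0.71 ± 0.61, 0.31 ± 0.63 and -0.73 ± 0.43 (SE), none past the criterion, which does not show that they were equal.

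**Figure D5:**
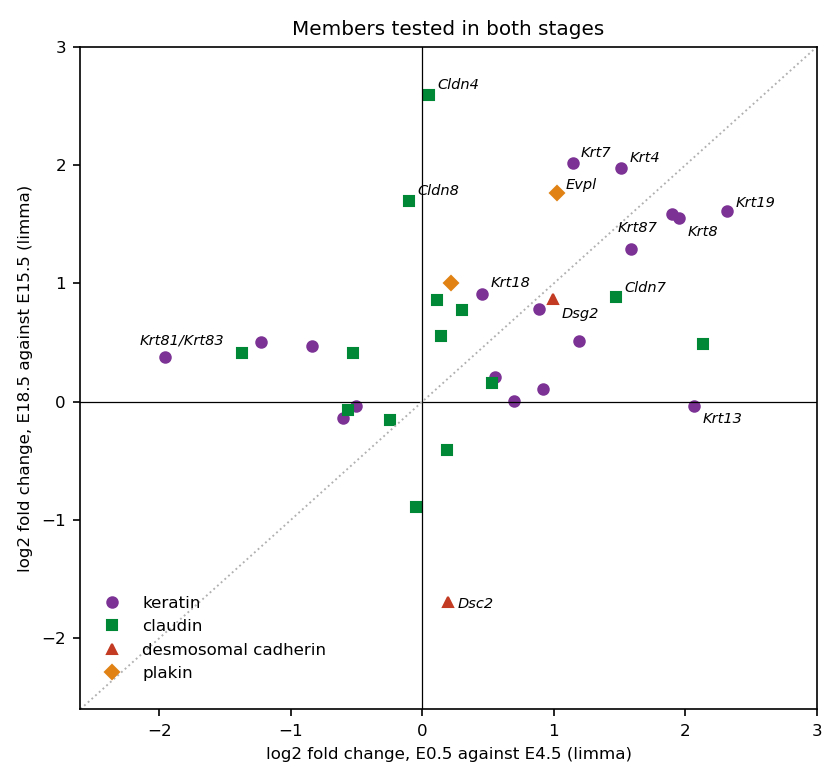
Log2 fold change of the 36 member pairs tested in both stages, E0.5 against E4.5 on the horizontal axis and E18.5 against E15.5 on the vertical axis, both from limma on log2(FPKM + 0.1), with a dotted line of equal change. Krt8, Krt19, Krt87 and Evpl, which passed in both stages, lie above 1 on both axes, as do Krt4, Krt7 and Krt20, which did not, Cldn4 and Cldn8 lie near 0 on the horizontal axis and at 2.59 and 1.70 on the vertical, and Dsc2 stands alone at -1.69.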

How the data were processed

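RNA from the uterus of 12 ICR mice (3 each at E0.5 and E4.5 and 3 each at E15.5 and E18.5, 1 library per mouse) had been sequenced by the authors as paired ends. The methods name ribosomal RNA depletion, whereas the labels name poly(A) selection, and they name different sequencers. By their methods the authors used Cutadapt 1.9 for trimming, Bowtie2 and Tophat2 for alignment, and StringTie and Ballgown for FPKM. The submitters' processing notes list Bowtie 0.12.2, HISAT2 2.0, StringTie 1.3.0 and the builds mm8 and mm10. The deposited FPKM tables, 1 per stage, were made separately. The deposited counts of the E0.5 and E4.5 table are whole numbers, with 58020989 to 70906881 per library, and how the authors assigned reads to genes, and whether by strand, is not given in the sources used here. Unnamed rows (7007) made up 1.02% to 1.86% of a library's counts and stayed in the fits, and a fit on named rows only was an added alternative. The E15.5 and E18.5 table holds FPKM only, so its depth is unknown. All 168941 values of 0.0001 FPKM in the first table had a count of 0 and were set to 0.

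A row was tested when its 6 libraries averaged 0.1 FPKM or more. E0.5 was compared with E4.5 by edgeR 4.0.16 (TMM factors, quasi-likelihood test) on counts, and E18.5 with E15.5, in log2(FPKM + 0.1), by limma 3.58.1 with a variance trend (R 4.3.3). The difference between both fold changes was tested by limma over 12 libraries. Benjamini-Hochberg adjustment covered every tested row of a comparison. Ratios within a library were chosen with their values known, so the exact permutation tests run on them are not reported. They were computed in Python 3.11.15 with SciPy 1.17.1 (pandas 2.3.3, NumPy 2.4.6, matplotlib 3.10.9). The limits given by 3 counts cover counting error only. The edgeR and DESeq2 tests, limma with a variance trend and the test of the difference were run on simulated data. Those data held large changes and no deviating library, so they do not show how the tests perform on these libraries. Alternatives were DESeq2 1.42.0, limma on FPKM, other scalings, filters, pseudocounts, the replicate number as a block and each library left out.

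The members, the gene lists and the tests were chosen with earlier results of these data known. The members given in full are those with an adjusted p under 0.05, those past the study's criterion at a mean of at least 1 FPKM, the 3 most abundant keratins and claudins of each stage, every tested Dsg, Dsc, Evpl and Ppl row, and Krt7, Krt8, Krt18, Krt19, Krt5, Krt13, Krt14, Cldn3, Cldn4, Cldn5 and Cldn10. Low members past the criterion are named too. Krt4, Krt10, Krt23, Krt80, the Krt81/Krt83 row, Cldn2, Cldn11 and Cldn12 were added after their values were seen. An epithelial marker that enters the counts, medians and sums of its list is not reported here on its own. No sequences were used here. The replicate numbers do not pair the samples.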

Additional observations from a re-analysis of the deposited data

Results flagged for a closer look

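Dsc2, the desmocollin of simple epithelia, was the 1 of 36 member pairs whose difference between the stages passed an adjusted p of 0.05, beside 2.57% of all row pairs, a share near that of the members. Its log2 fold change between E0.5 and E4.5 exceeded that between E18.5 and E15.5 by 1.88 ± 0.39 (SE, limma over 12 libraries, adjusted p = 0.0310). This difference of both fold changes is what singled the result out. It lay between 1.60 and 2.21 in the 12 fits with 1 library left out, had an unadjusted p under 0.05 in all 12 and an adjusted p under 0.05 in 5. The groups hold 3 mice each, too few to test single libraries as outliers.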

How the results depend on the processing

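Between E0.5 and E4.5, the 8 members past the criterion became 5 with limma on FPKM and 2 with edgeR's adjusted p (7 with that of DESeq2), and 7 to 12 with 1 library left out. DESeq2, RLE or upper quartile factors gave 8. Of all rows 7284 passed, against 4396 at a mean of at least 1 FPKM, 719 with the adjusted p and 6000 to 8442 with 1 library left out. Between E18.5 and E15.5, 11 members became 6 with a pseudocount of 1, 0 with the adjusted p and 9 to 17 with 1 library left out. Of all rows 1870 passed, against 514 with a pseudocount of 1, 799 at a mean of at least 1 FPKM, 8 with the adjusted p and 1537 to 2395 with 1 library left out. The 3 differences between the stages became 1 with the adjusted p, and 2 to 9 with 1 library left out (9 without E4.5 replicate 3, 5 without E0.5 replicate 2). With all libraries 11.9% of all row pairs passed. Their share with 1 library left out is not given here, so the counts of 2 to 9 cannot be set against it. The replicate numbers do not pair the samples, since deviations of same-numbered libraries correlated at -0.066 to 0.018, and with the replicate number as a block 7, 11 and 3 members passed (6234 and 1853 of all rows). No other scaling moved the median of all rows by over 0.1. Of 564 alternatives for 41 single-member results, 515 kept direction and side of the criterion, 23 lost and 7 gained the call, and 19 turned direction, all of them for members that did not pass. Cldn3 at the implantation stage (-0.029) was 0.043 with upper quartile factors, 0.10 with the block, 0.11 with limma on FPKM and -0.40 to 0.27 with 1 library left out. Cldn4 (-0.090) was 0.044 with the block, 0.052 with limma on FPKM and -0.46 to 0.22 with 1 library left out, and Cldn5 (0.097) -0.22 to 0.51. At the labor stage Cldn1 (-0.40) was -0.685 to 0.099 with 1 library left out, and Krt13 (-0.040) was 0.052 with a pseudocount of 1 or quantile normalization and -0.80 to 0.34 with 1 library left out. Among members that did not pass with all libraries, direction also turned in a fit with 1 library left out for Cldn1, Cldn8, Cldn11, Cldn23, Cldn24 and Krt23 at the implantation stage and Cldn2, Cldn6, Cldn11, Cldn15, Cldn20, Krt10, Krt15, Krt17, Krt23, Krt80, Krt84 and Krt222 at the labor stage. The cause of these changes was not tested. The depth of the labor stage is unknown, so a listed 0 there gives no limit.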

Other observations

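Some rows carried the name of a member but no Ensembl transcript and were therefore not counted as members, 8 in the first table and 1 in the second. Those named Cldn14 (4 rows) had 0 to 2.99 FPKM, while the Cldn14 row with an Ensembl transcript had at most 0.015 FPKM in any library. The most abundant of these fragments, on chromosome 16 from 93957324 to 93957811, had 2.47, 1.43 and 2.99 FPKM at E0.5 and 1.11, 0.836 and 0 at E4.5, and its log2 fold change of 1.78 did not pass (edgeR, adjusted p = 0.495). A fragment named Krt23 on chromosome 11 (99489115 to 99489429) followed the libraries of the Krt23 row, with 0.839, 3.55 and 3.29 FPKM at E0.5 and 3.56, 5.40 and 0 at E4.5. The other rows of this kind were named Evpl and Cldn10, and none of the 9 passed the study's criterion.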
